A study of Mus musculus with 49 samples.

Results

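The 6 genes described here encode transcription factors that act when an intestinal crypt cell commits to the enteroendocrine fate: Neurog3, Neurod1, Insm1, Pax4, Myt1 and St18. They were taken by symbol from a table of read counts for 24062 mouse genes. All 6 were found there, and all 6 passed the filter on low counts that left 14837 genes for testing.

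Enteroendocrine cells are the hormone-secreting cells of the gut lining. They descend from crypt progenitors in which Notch signalling is low and the basic helix-loop-helix (bHLH) factor Atoh1 is on. In such a progenitor the bHLH factor Neurog3 is switched on for a short time and is required for the endocrine lineage, and factors downstream of it, among them its target Neurod1, stay on as the cell makes granules and hormones. Insm1 is a zinc-finger factor of endocrine differentiation, Pax4 a paired-homeodomain factor of endocrine progenitors, and Myt1 and St18 are zinc-finger factors of the same family, known in the mouse from pancreatic endocrine cells.

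RNA was sequenced from 25 libraries in 12 groups of epithelium from the first part of the small intestine of adult mice on a mixed B6;129 background. Cells sorted for green fluorescent protein (GFP) came from Bmi-1GFP/+ mice 36 h after 10 Gy of whole-body radiation (Bmi1-GFP irradiated, 1 library), from untreated Bmi-1GFP/+ mice (Bmi1-GFP, 3 libraries), from Lgr5EGFP-DTR mice (Lgr5-GFP-DTR, 2 libraries) and from Lgr5EGFP-IRES-CRE-ERT2 mice, where only the brightest cells were taken (Lgr5-GFP-Cre, 3 libraries). Wild-type cells with high CD24 gave the enteroendocrine libraries where they did not bind the UEA lectin, and the Paneth libraries where they bound it strongly (2 libraries each). Wild-type cells positive for both surface proteins CD274 and CD69 were taken 1 day after the last of 4 injections of 50 µg/kg diphtheria toxin (CD274+CD69+ DT) and from untreated mice (CD274+CD69+ control, 2 libraries each); the labels give the toxin-treated mice as wild type and name no toxin receptor in them. The goblet libraries (2) came from wild-type mice 115 h after the first of 2 doses of 48 mg/kg DBZ, a Notch pathway inhibitor, and the text of their sort names that same CD274 and CD69 gate. The other 3 groups were whole crypts with no sort, 2 libraries each: Rbpj F/F; Villin-CRE mice on day 3 of tamoxifen (Rbpj crypts), Atoh1 F/F mice with no Cre named, 38 h after the first of 2 doses of DBZ (DBZ crypts), both labelled secretory progenitors, and Atoh1 F/F; Villin-CRE mice 3 weeks after tamoxifen (Atoh1-deleted crypts, labelled enterocyte progenitors). Villin drives Cre through the intestinal epithelium, so those crypts still hold every crypt cell type that can form without the deleted gene.

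Libraries held between 11179085 and 27371108 counts. Levels are given in CPM, which relate a gene's counts to the total of its library, scaled by TMM to correct for library makeup. Atoh1 stood at 60.9 and 125 CPM in DBZ crypts, against 1.56 and 1.81 CPM in Atoh1-deleted crypts, so the targeted gene was low where the label says so. Rbpj stood at 22.5 and 29.3 CPM in Rbpj crypts, against 40.9 and 33.0 CPM in DBZ crypts. Atoh1-deleted crypts had 44.9 and 45.4 CPM, and sorted Lgr5-GFP-Cre cells 19.4 to 24.3 CPM. Rbpj was thus lower in Rbpj crypts than in the other whole crypts, but it was not lost. Whole-gene counts, which can include reads outside the deleted part, do not by themselves show the deletion that the label gives. The Rbpj crypts are called the libraries labelled Rbpj. Both of them and replicate 1 of the CD274+CD69+ control were labelled as made with a TruSeq kit and all others with SMART-Seq v4. GFP lines were dissociated with TrypLE, antibody-sorted cells with Dispase, and no enzyme is named for whole crypts, so the enzyme and the kind of cell cannot be told apart between those sets. Tuft cells share high CD24 with endocrine cells, and 8 tuft markers summed to 849 and 4194 CPM in the enteroendocrine libraries and to 1087 and 1474 CPM in the Lgr5-GFP-DTR libraries, against 21.5 to 29.7 CPM in Lgr5-GFP-Cre cells. In bulk RNA, fewer cells of a type and less RNA per cell cannot be told apart.

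The genes lie apart in the GRCm38.p6 assembly, which mm10 denotes: Neurog3 at chr10:62133090-62134763, Neurod1 at chr2:79452637-79456636, Insm1 at chr2:146221997-146225020, Pax4 at chr6:28442334-28449340, Myt1 at chr2:181763332-181827775 and St18 at chr1:6487231-6860940. RefSeq promoter sequences were matched for 3 of the 6 genes, Neurog3, Neurod1 and Myt1, and the part upstream of each start is printed to show where it holds the letters that bHLH factors bind. Each is 250 bases, 5′ to 3′ on the gene's own strand, with capitals marking CANNTG, the E-box of bHLH factors such as Neurog3 and Neurod1.

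Neurog3 promoter (plus strand, chr10:62132840-62133089): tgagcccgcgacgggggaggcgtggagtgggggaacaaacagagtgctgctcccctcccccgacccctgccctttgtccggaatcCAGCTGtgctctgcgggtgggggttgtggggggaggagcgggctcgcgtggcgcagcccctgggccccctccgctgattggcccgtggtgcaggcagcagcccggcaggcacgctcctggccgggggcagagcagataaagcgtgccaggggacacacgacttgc

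Neurod1 promoter (minus strand, chr2:79456637-79456886): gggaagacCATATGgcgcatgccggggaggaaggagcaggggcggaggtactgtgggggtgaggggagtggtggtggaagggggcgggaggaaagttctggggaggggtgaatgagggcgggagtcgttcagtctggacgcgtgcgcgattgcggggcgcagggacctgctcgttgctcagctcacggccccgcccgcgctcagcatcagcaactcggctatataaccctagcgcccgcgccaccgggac

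Myt1 promoter (plus strand, chr2:181763082-181763331): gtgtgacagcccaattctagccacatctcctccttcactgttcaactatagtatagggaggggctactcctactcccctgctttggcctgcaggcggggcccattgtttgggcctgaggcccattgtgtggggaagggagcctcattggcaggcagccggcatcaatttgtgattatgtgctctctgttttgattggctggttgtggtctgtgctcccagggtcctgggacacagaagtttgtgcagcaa

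Searched on both strands, the Neurog3 sequence held 1 E-box, CAGCTG, at position -165 from the start, and the Neurod1 sequence held 1, CATATG, at -242. The Myt1 sequence held 0. An E-box was present in 66.0% of 27025 RefSeq promoters of this length, so a match of this kind is common. None of the 3 held CACNAG, the N-box bound by Hes repressors, which was in 36.7% of all promoters. These matches describe the letters in the windows and show no binding.

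Neurog3 was highest in enteroendocrine cells and in 1 of the libraries of DBZ crypts, and it was not high in Bmi1-GFP cells. It stood at 75.5 and 36.4 CPM in enteroendocrine cells, and at 7.54 and 76.2 CPM in DBZ crypts. The 3 Bmi1-GFP libraries had 4.58, 12.2 and 3.63 CPM, against 18.3, 11.1 and 11.9 CPM in Lgr5-GFP-Cre cells (3 libraries). Bmi1-GFP replicate 2 fell inside the Lgr5-GFP-Cre values and the other 2 Bmi1-GFP libraries lay below them. The libraries labelled Rbpj had 12.9 and 11.9 CPM, and the goblet, Paneth, CD274+CD69+ and Lgr5-GFP-DTR libraries lay between 1.91 and 5.53 CPM. Atoh1-deleted crypts held 0.160 and 0.477 CPM, from 4 and 15 counts, the lowest of the unirradiated groups. In the order of group means, each neighbouring pair of unirradiated groups overlapped from enteroendocrine cells (56.0 ± 27.7 CPM, SD, n = 2) down to Paneth cells (2.47 ± 0.405 CPM, n = 2), and only the step from there to Atoh1-deleted crypts and the irradiated library was clear of overlap.

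Neurod1, the target of Neurog3 that persists in endocrine cells, was high in both Bmi1-GFP and enteroendocrine cells. Its CPM was 166, 139.8 and 86.6 in the Bmi1-GFP libraries and 204 and 99.0 in the enteroendocrine ones, against 3.79, 2.38 and 3.84 CPM in Lgr5-GFP-Cre stem cells. The Bmi1-GFP and enteroendocrine libraries overlapped each other and lay above every other library. Goblet libraries came next with 40.4 and 29.7 CPM. DBZ crypts had 8.11 and 25.6 CPM, the libraries labelled Rbpj 6.54 and 8.87 CPM, Paneth cells 11.4 and 5.00 CPM, and all CD274+CD69+ libraries lay between 4.03 and 7.45 CPM. Atoh1-deleted crypts had 0.0401 and 0.350 CPM.

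Insm1 and Myt1 were, like Neurod1, higher in every Bmi1-GFP and enteroendocrine library than in any Lgr5-GFP-Cre library. Bmi1-GFP libraries had 31.0, 37.0 and 18.2 CPM of Insm1 and enteroendocrine libraries 71.5 and 39.3 CPM, against 5.72, 5.15 and 4.24 CPM in Lgr5-GFP-Cre cells. Bmi1-GFP libraries had 16.5, 10.9 and 5.11 CPM of Myt1 and enteroendocrine libraries 32.2 and 14.96 CPM, against 0, 0.772 and 0.524 CPM in Lgr5-GFP-Cre cells. For Insm1 every enteroendocrine library was above every Bmi1-GFP library, while for Myt1 the groups overlapped. Neither gene was called between these groups in the test given below. In Atoh1-deleted crypts Insm1 was at 0 and 0.191 CPM and Myt1 at 0 and 0.0318 CPM. A count of 0 in the shallower of these libraries allows up to 0.120 CPM (3 counts; counting error only).

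Pax4 was highest in enteroendocrine cells, at 38.1 and 18.2 CPM. Bmi1-GFP cells had 5.88, 7.20 and 2.58 CPM, against 4.06, 1.74 and 1.92 CPM in Lgr5-GFP-Cre cells, and these groups overlapped. DBZ crypts had 1.89 and 8.57 CPM, against 0 and 0.159 CPM in Atoh1-deleted crypts. All other unirradiated libraries lay between 0.437 and 3.31 CPM.

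St18 stood apart from the other 5 in where it was found. Enteroendocrine libraries were highest, at 66.5 and 65.5 CPM, and Bmi1-GFP libraries had 18.9, 32.8 and 13.8 CPM. In Atoh1-deleted crypts, where each of the other 5 genes lay at or below 0.477 CPM, it had 6.69 and 5.69 CPM, and it stood at 5.61 and 22.8 CPM in Lgr5-GFP-DTR cells, against 1.79, 1.35 and 0.524 CPM in Lgr5-GFP-Cre cells. The 8 tuft markers moved with it in these groups, at 1338 and 660 CPM in Atoh1-deleted crypts, against the 21.5 to 29.7 CPM of Lgr5-GFP-Cre cells. They moved likewise within the Paneth pair, where St18 was 6.44 and 10.3 CPM and the tuft sum 67.2 and 1099.9 CPM, and within the pair labelled Rbpj, where St18 was 2.97 and 6.84 CPM and the tuft sum 49.1 and 441 CPM. They did not order every library: St18 was nearly equal in the enteroendocrine pair, where the tuft sum was 849 and 4194 CPM, and it was 2.67 and 7.11 CPM in DBZ crypts, where the tuft sum was 120 and 113 CPM. The part of tuft cells in the St18 level was not tested.

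**Figure D1:**
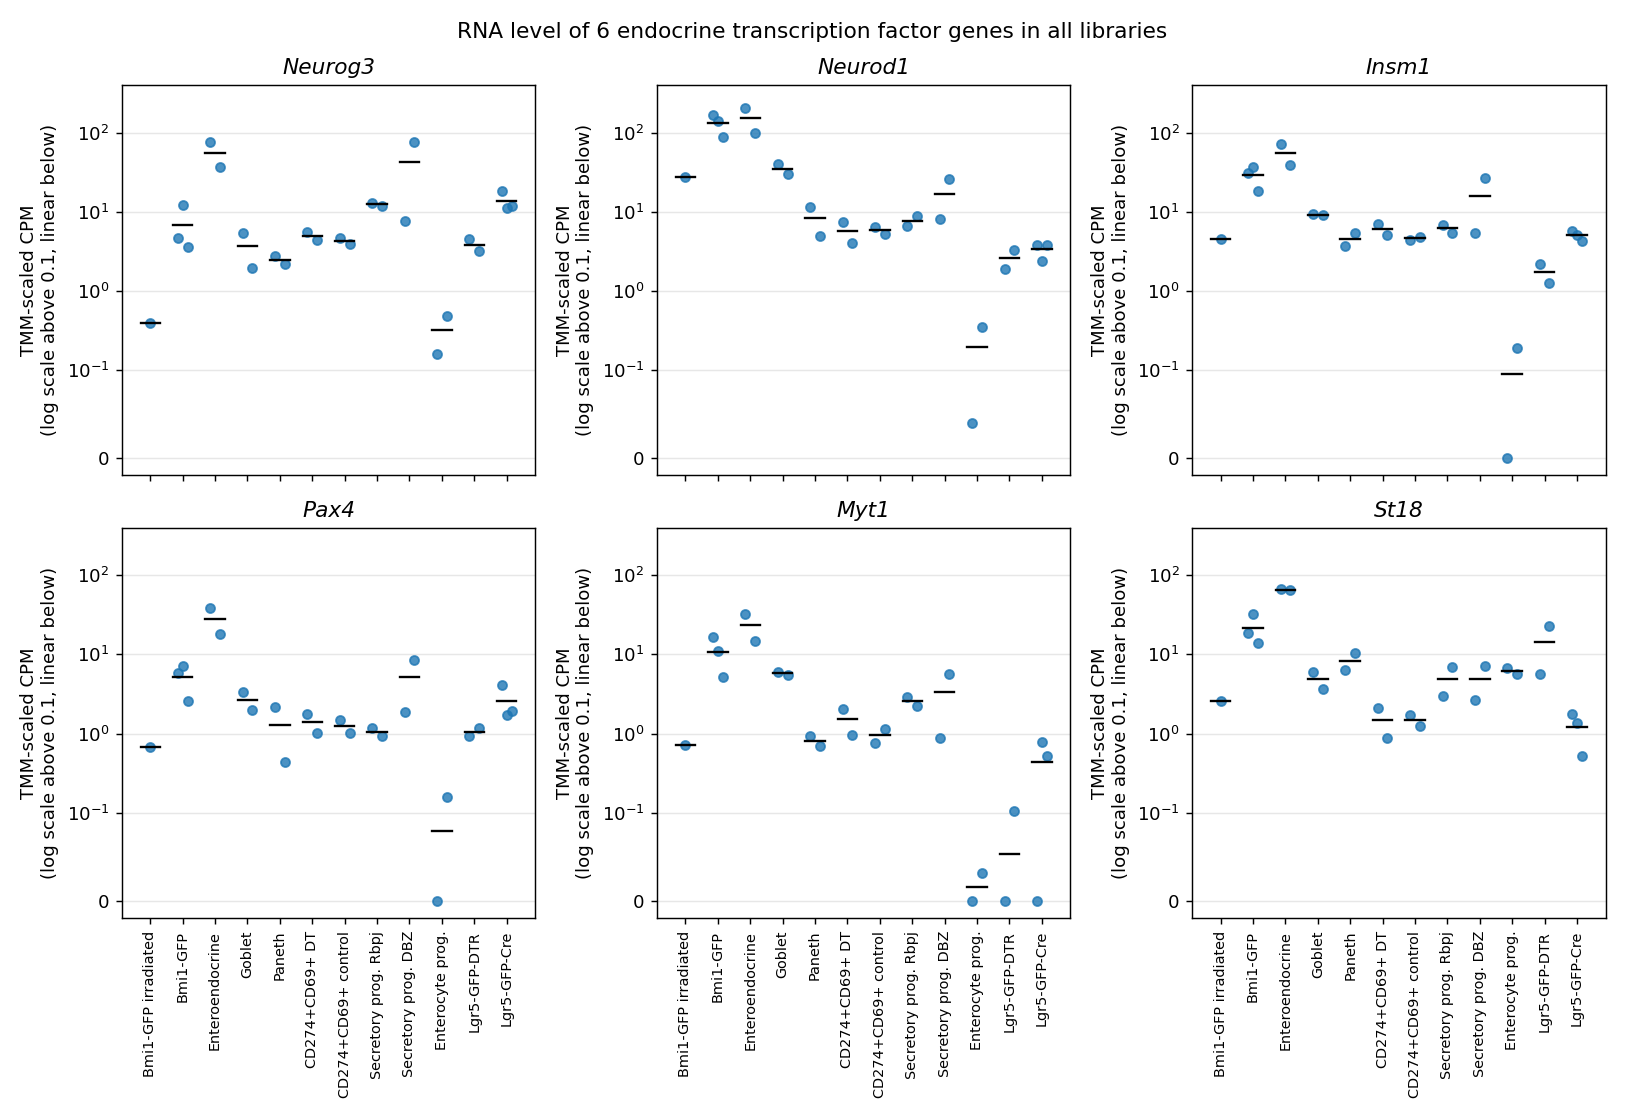
TMM-scaled CPM of each gene (log scale above 0.1, linear below) in each library (points) with the group mean (bar), over 12 groups. Neurod1, Insm1 and Myt1 are high in both Bmi1-GFP and enteroendocrine cells, Neurog3 is high in enteroendocrine cells and in DBZ replicate 2, and St18 alone stays above 5 CPM in Atoh1-deleted crypts.

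Bmi1-GFP cells, proposed elsewhere as a reserve stem cell population, were compared with Lgr5-GFP-Cre stem cells. Of the 6 genes 4 rose in Bmi1-GFP cells and 0 fell, where 27.9% of all 14837 genes rose and 22.5% fell (edgeR quasi-likelihood test, Benjamini-Hochberg adjusted p below 0.05 over all genes). Neurod1 was higher by 5.28 on the log2 scale (SE 0.50, adjusted p = 1.02e-06), Myt1 by 4.59 (SE 0.78), St18 by 4.20 (SE 0.60) and Insm1 by 2.52 (SE 0.48). Neurog3 was not called (log2 -1.02, SE 0.60, adjusted p = 0.162), and neither was Pax4 (log2 1.02, SE 0.62, adjusted p = 0.174). Without Bmi1-GFP replicate 2, Neurog3 was called lower (log2 -1.71, adjusted p = 0.0446).

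Other gene lists were counted in the same comparison. Of 10 listed genes of secretory choice and Notch signalling, 6 fell and 0 rose in Bmi1-GFP cells. Their median log2 difference was -1.07, against 0.09 over all genes. The list holds Atoh1 as well as Notch genes and the repressor Hes1, so its count has no single direction in the pathway. Hes6, a Notch-related bHLH gene, averaged 69.5 CPM in Bmi1-GFP cells and 222 CPM in Lgr5-GFP-Cre cells, and the repressor Hes1, which Notch turns on, averaged 64.4 and 223 CPM. Of 15 later endocrine transcription factors 12 rose and 1, Foxa2, fell (median log2 4.06). The LIM-homeodomain gene Isl1 averaged 43.8 CPM in Bmi1-GFP cells and 2.11 CPM in Lgr5-GFP-Cre cells (log2 4.38, SE 0.40), and Pax6, a paralog of Pax4, averaged 13.6 and 0.207 CPM. All 17 granins, convertases and hormones rose (median log2 5.48), led by the granin Scg2 and by the hormone genes Cck and Ghrl. Immune markers were also higher in Bmi1-GFP cells, where 10 of them summed to 386 to 954 CPM, against 13.3 to 19.1 CPM in Lgr5-GFP-Cre cells. Of 8 tuft markers 7 rose in Bmi1-GFP cells (213 to 546 CPM in sum, against 21.5 to 29.7 CPM in Lgr5-GFP-Cre cells), and so did 7 of 8 enterocyte markers (5183 to 13978 CPM, against 2457 to 4331 CPM) and 4 of the 5 neural markers that could be tested (30.6 to 66.2 CPM over all 9, against 1.03 to 3.14 CPM). All 8 stem markers fell (1095 to 1736 CPM in Bmi1-GFP cells, against 5962 to 7952 CPM in Lgr5-GFP-Cre cells), as did 5 of 6 Paneth markers (6784 to 10530 CPM, against 40104 to 49351 CPM). The part of these other cell types in the comparison was not tested.

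Enteroendocrine cells were set against the same stem cells, and all 6 genes rose, where 25.5% of genes rose and 20.4% fell. The log2 differences were 5.80 (SE 0.65) for St18, 5.71 (SE 0.83) for Myt1, 5.50 (SE 0.52) for Neurod1, 3.46 (SE 0.51) for Insm1, 3.46 (SE 0.69) for Pax4 and 2.02 (SE 0.64) for Neurog3. All 8 tuft markers rose too (849 and 4194 CPM in sum, against 21.5 to 29.7 CPM in Lgr5-GFP-Cre cells). So did 6 of 7 goblet markers, with 0 lower. Of 10 immune markers 7 rose and 2 fell, and of 8 stem markers 7 fell and 0 rose. The part of these cell types was not tested. Neurog3 rested on single libraries: its adjusted p of 0.0157 became 0.178 without enteroendocrine replicate 1, 0.0517 without Lgr5-GFP-Cre replicate 2 and 0.0571 without replicate 3. All 6 also rose against Lgr5-GFP-DTR cells, where 19.9% of genes rose and 14.1% fell, with St18 the smallest of the 5 with a fold (log2 2.22, SE 0.63). That St18 call was lost without Lgr5-GFP-DTR replicate 1 (log2 1.53, adjusted p = 0.103). Myt1 has no fold there because Lgr5-GFP-DTR cells held 1 count of it in all.

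Bmi1-GFP cells were then compared with enteroendocrine cells directly. Of the 6 genes 3 fell in Bmi1-GFP cells and 0 rose, where 12.1% of genes fell and 12.6% rose. Neurog3 averaged 6.79 ± 4.68 CPM in Bmi1-GFP cells (n = 3) and 56.0 ± 27.7 CPM in enteroendocrine cells (n = 2), a log2 difference of -3.04 (SE 0.66, adjusted p = 0.00367). Neurod1 was not called (log2 -0.21, SE 0.45, adjusted p = 0.763). Insm1 (log2 -0.95, SE 0.48, adjusted p = 0.158) and Myt1 (log2 -1.12, SE 0.68, adjusted p = 0.238) were not called either. Pax4 differed by -2.43 (SE 0.66) and St18 by -1.60 (SE 0.54), both called lower. These calls depended on which libraries were kept. Without enteroendocrine replicate 1, the higher of its pair for each of the 6 genes, all 3 calls were lost (adjusted p = 0.0577 for Neurog3, 0.177 for Pax4 and 0.153 for St18), and calls over all genes fell to 1152, against 3665 with it. Without Bmi1-GFP replicate 3 Neurog3 alone was called (Pax4 adjusted p = 0.0532). The St18 call was also lost without Bmi1-GFP replicate 1 (adjusted p = 0.118) or enteroendocrine replicate 2 (adjusted p = 0.101). Bmi1-GFP libraries held less Paneth marker RNA, 6784 to 10530 CPM over 6 genes, against 63339 and 53071 CPM in enteroendocrine libraries. Of the 8 tuft markers 6 fell in Bmi1-GFP cells (213 to 546 CPM in sum, against 849 and 4194 CPM in enteroendocrine cells), and 7 of 8 enterocyte markers rose (5183 to 13978 CPM, against 2102 and 2811 CPM). The part of these markers' cell types was not tested. Of the 10 genes of secretory choice and Notch signalling 2 fell in Bmi1-GFP cells, the Notch ligand Dll3 (log2 -3.60, SE 0.58) and Hes6 (log2 -1.53, SE 0.27). Of the 15 later factors 4 fell and 2 rose, Etv1 by 2.20 (SE 0.53), and of the 17 products 4 rose and 1, the incretin gene Gip, fell.

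**Figure D2:**
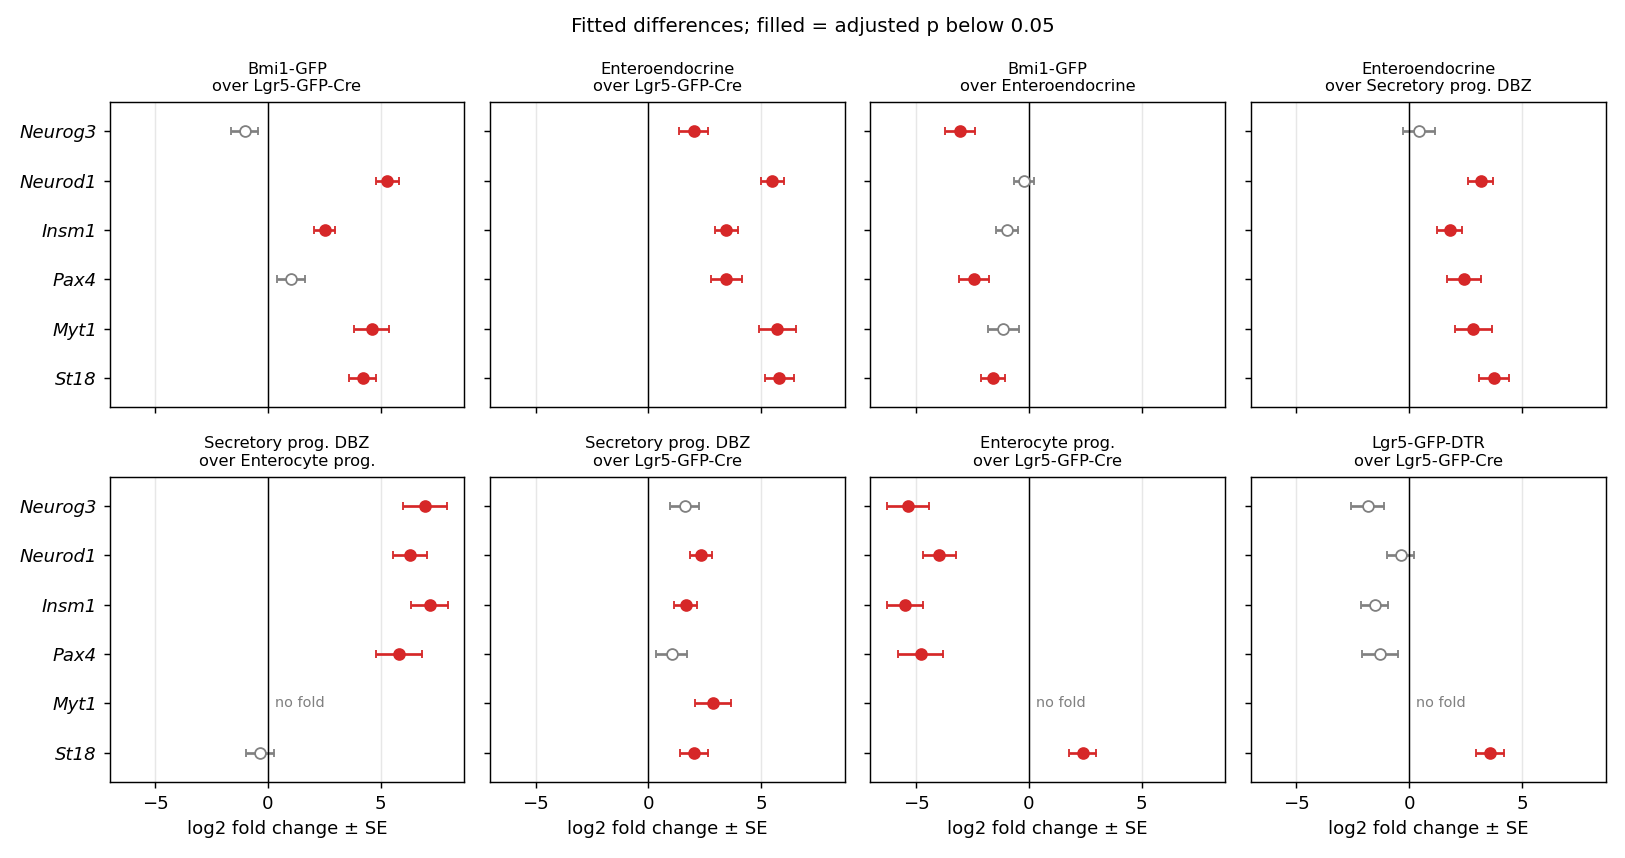
Fitted log2 fold change ± SE (x axis) of each gene (rows) in 8 comparisons (panels, named as numerator over denominator). Filled points passed an adjusted p of 0.05, and "no fold" marks a gene with 3 counts or fewer in a group. Neurog3 is the gene that differs least between enteroendocrine cells and DBZ crypts and most between Bmi1-GFP and enteroendocrine cells, and St18 is the member above 0 in Atoh1-deleted crypts over Lgr5-GFP-Cre cells.

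The balance of Neurog3 to Neurod1 within a library needs no scaling between libraries, although the ratio of a single library also carries the different lengths of the transcripts. There were 2.78, 8.72 and 4.21 Neurog3 counts per 100 Neurod1 counts in Bmi1-GFP cells, against 480, 463 and 309 in Lgr5-GFP-Cre cells. The mean log2 ratio was -4.42 ± 0.84 in Bmi1-GFP cells and 2.03 ± 0.35 in Lgr5-GFP-Cre cells (SD, n = 3 each), a difference of -6.45 with an exact two-sided permutation p of 0.10, the smallest that 3 against 3 libraries allow. The libraries did not overlap. Enteroendocrine libraries gave 37.0 and 36.8, almost the same value although their Neurog3 levels differed by over 2-fold. Goblet libraries gave 13.3 and 6.57, Paneth libraries 24.4 and 44.1, and CD274+CD69+ libraries 74.2 and 109.6 after toxin, against 72.9 and 73.2 in controls. The libraries labelled Rbpj gave 197 and 134, DBZ crypts 92.9 and 298, Lgr5-GFP-DTR cells 235 and 96.8, and Atoh1-deleted crypts 300 and 135 from few counts. All of these lay above every Bmi1-GFP, enteroendocrine, goblet and Paneth library.

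**Figure D3:**
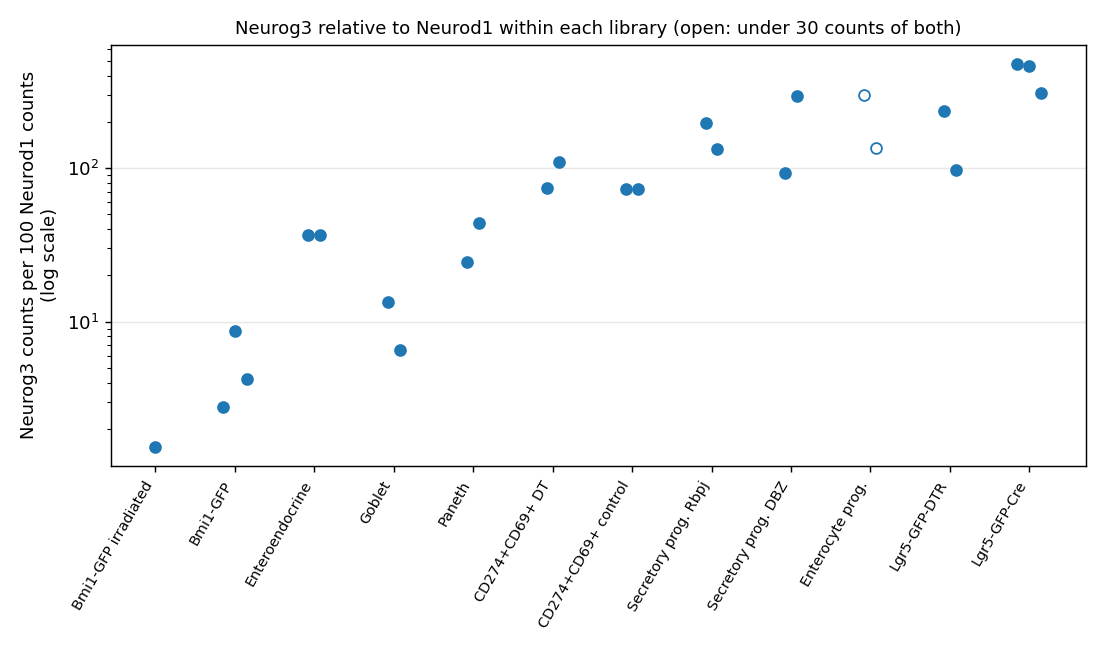
Neurog3 counts per 100 Neurod1 counts (log scale) in each library, by group, with open points where the library had under 30 counts of both together. The 3 Bmi1-GFP libraries lie between 2.78 and 8.72, enteroendocrine libraries at 37, and Lgr5-GFP-Cre libraries between 309 and 480.

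Set against Chgb, the gene of the granule protein chromogranin B, the 6 genes kept different proportions. Neurod1 stayed between 1.99 and 10.5 counts per 100 Chgb counts in all libraries with more than 3 Neurod1 counts. Neurog3 ran from 0.160 to 0.354 per 100 Chgb counts in Bmi1-GFP cells and 1.65 to 1.70 in enteroendocrine cells, against 9.86 to 17.6 in Lgr5-GFP-Cre cells. Pax4 followed the same order, with 0.205 to 0.252 in Bmi1-GFP cells and 0.833 to 0.851 in enteroendocrine cells, against 1.56 to 3.92 in Lgr5-GFP-Cre cells. St18 reached 153 and 46.4 in Atoh1-deleted crypts, where Chgb was at 4.37 and 12.3 CPM.

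**Figure D4:**
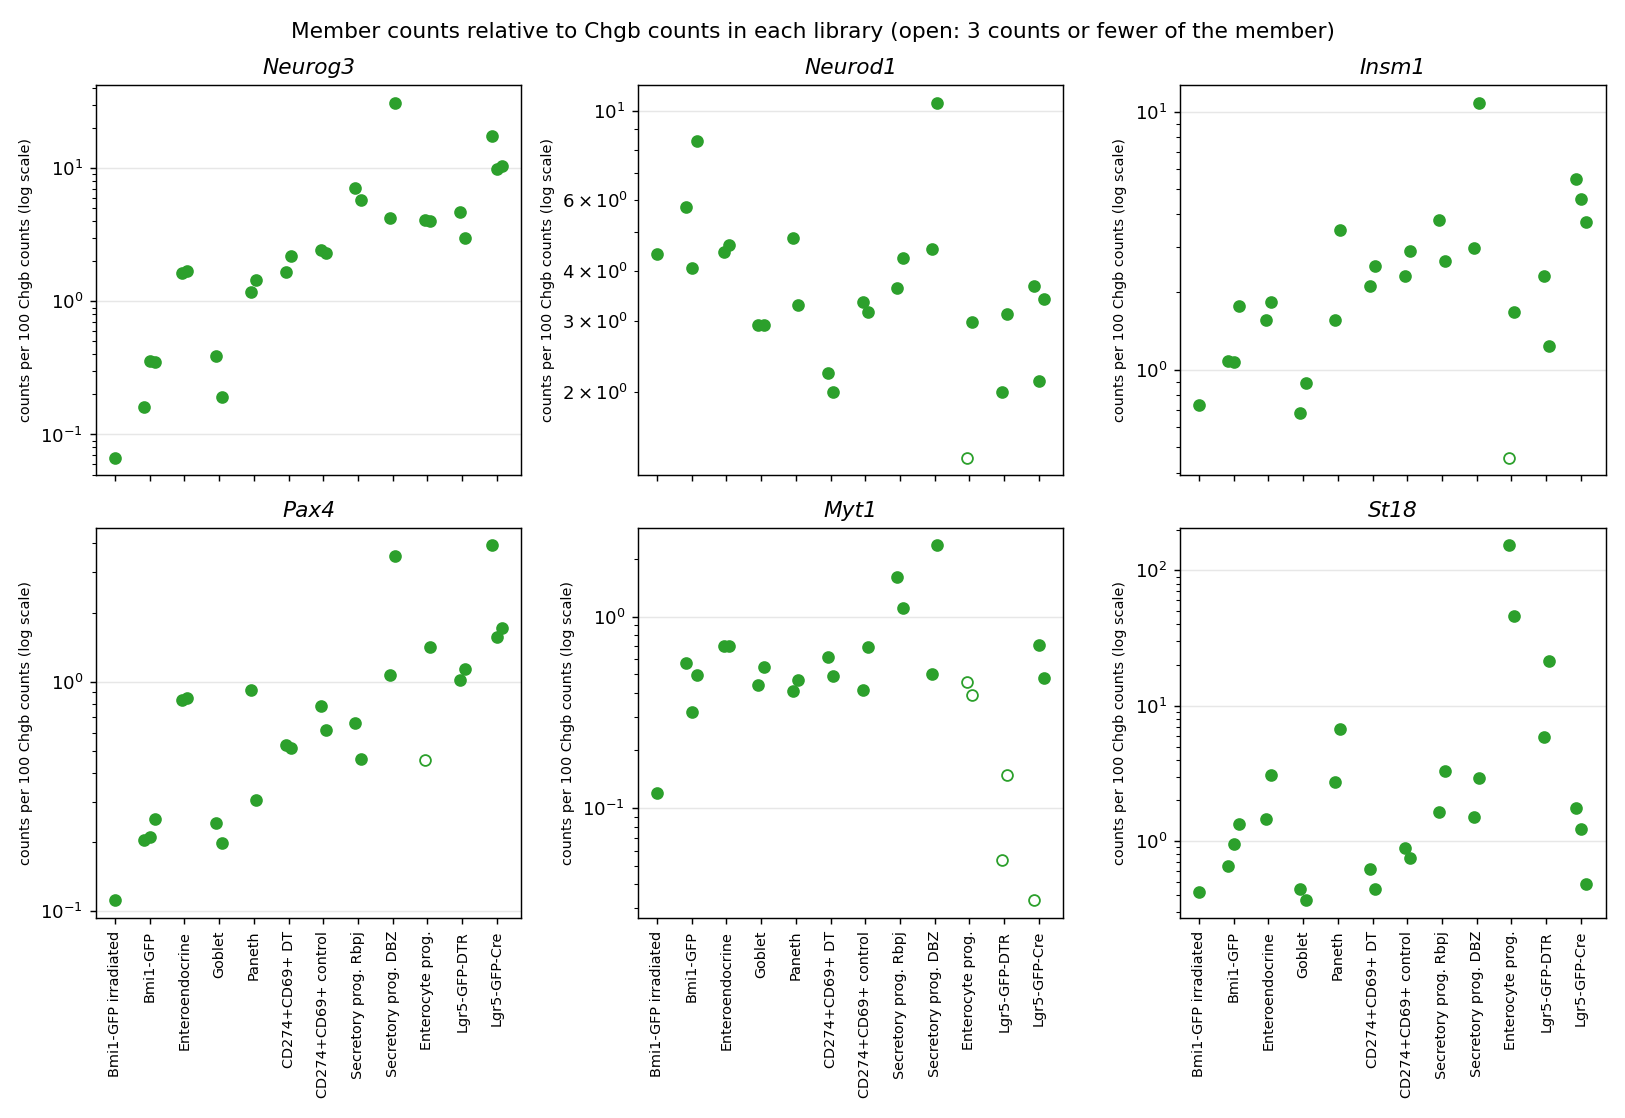
Counts of each gene per 100 counts of Chgb (log scale, a different range in each panel) in each library, by group, with open points for 3 counts or fewer of the gene; libraries with none are drawn from a pseudocount of 0.5. Neurod1 keeps a narrow range, Neurog3 and Pax4 are lowest in Bmi1-GFP libraries, the irradiated one included, and goblet libraries, and St18 is highest in Atoh1-deleted crypts.

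Whole crypts from mice given the Notch pathway inhibitor DBZ were compared with crypts that had lost Atoh1. Hes1 stood at 85.1 and 31.9 CPM in DBZ crypts, against 44.3 and 59.6 CPM in Atoh1-deleted crypts. Of the 6 genes 5 rose in DBZ crypts over Atoh1-deleted crypts and 0 fell, where 1.89% of genes rose and 0.573% fell. Neurog3 was higher by 6.96 on the log2 scale (SE 0.98), Insm1 by 7.16 (SE 0.82), Neurod1 by 6.29 (SE 0.75) and Pax4 by 5.82 (SE 1.02), all at adjusted p below 0.05, and Myt1 passed without a fold, since Atoh1-deleted crypts held 1 count of it. St18 was the exception, at 4.89 ± 3.14 CPM in DBZ crypts and 6.19 ± 0.712 CPM in Atoh1-deleted crypts (log2 -0.34, SE 0.62, adjusted p = 0.957). Fitted on these 4 libraries alone, only 2 of the 6 were called, Neurod1 and Insm1, and without Atoh1-deleted replicate 1 the calls of Pax4 and Myt1 were lost (adjusted p = 0.0551 and 0.0934). Myt1 was also lost without Atoh1-deleted replicate 2 (adjusted p = 0.0552) or DBZ replicate 2 (adjusted p = 0.0677). All 6 Paneth markers rose in DBZ crypts (18592 and 4678 CPM in sum, against 55.6 and 125 CPM in Atoh1-deleted crypts), as did all 7 goblet markers (7908 and 9069 CPM, against 36.4 and 77.6 CPM), and their part was not tested. Of the 10 genes of secretory choice and Notch signalling, 4 rose and 1, Notch1, fell. Of the 15 later factors 9 rose, and of the 17 products 16 rose, the hormone gene Ghrl by 5.54 (SE 0.59).

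The libraries labelled Rbpj gave 5 genes higher than in Atoh1-deleted crypts and 0 lower, where 15.1% of genes rose and 13.0% fell, with log2 differences of 5.21 (SE 0.93) for Neurog3, 5.80 (SE 0.82) for Insm1, 5.16 (SE 0.75) for Neurod1 and 3.52 (SE 1.03) for Pax4. The Pax4 call was lost without Atoh1-deleted replicate 1 (adjusted p = 0.115) or without replicate 1 of those labelled Rbpj (adjusted p = 0.0561). St18 was again not called (log2 -0.34, SE 0.62). The 2 comparisons share the Atoh1-deleted libraries. Both libraries labelled Rbpj were labelled TruSeq, and all DBZ and Atoh1-deleted libraries SMART-Seq v4. Kit and group therefore cannot be told apart where those labelled Rbpj are compared with Atoh1-deleted or DBZ crypts. Between the libraries labelled Rbpj and DBZ crypts, 1 gene fell in those labelled Rbpj, Pax4 (log2 -2.30, SE 0.79, adjusted p = 0.0396), where 11.9% of genes fell and 12.9% rose. That call was lost without either library labelled Rbpj and without DBZ replicate 2, while without DBZ replicate 1 Neurog3, Neurod1, Insm1 and Pax4 were all called lower.

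The 2 libraries of DBZ crypts were far apart, and replicate 2 was the higher for each of the 6 genes. Its Neurog3 was 76.2 CPM, against 7.54 CPM in replicate 1, its Neurod1 25.6 against 8.11 CPM, its Insm1 26.5 against 5.31 CPM and its Myt1 5.73 against 0.879 CPM. Replicate 2 also had Atoh1 at 125 against 60.9 CPM, Hes1 at 31.9 against 85.1 CPM, 8 stem markers summing to 485 against 1968 CPM, 8 enterocyte markers to 12760 against 2752 CPM and 6 Paneth markers to 4678 against 18592 CPM. The part of these differences in the results of this group was not tested.

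Against Lgr5-GFP-Cre stem cells, 4 of the 6 genes rose in DBZ crypts and 0 fell, where 21.0% of genes rose and 15.7% fell. Myt1 rose by 2.87 (SE 0.80), Neurod1 by 2.32 (SE 0.49), St18 by 2.04 (SE 0.62) and Insm1 by 1.66 (SE 0.50). Neurog3 missed the threshold (41.9 ± 48.6 CPM in DBZ crypts and 13.8 ± 3.94 CPM in Lgr5-GFP-Cre cells, log2 1.60, SE 0.64, adjusted p = 0.0572). This comparison rested on DBZ replicate 2: without it all 4 calls were lost (adjusted p 0.0887 to 0.943), and without DBZ replicate 1 Neurog3 was called higher (log2 2.51, adjusted p = 0.00202). Without Lgr5-GFP-Cre replicate 3 Insm1 and St18 were lost (adjusted p = 0.0512 and 0.0692). Atoh1-deleted crypts had 5 genes lower than Lgr5-GFP-Cre cells, where 17.2% of genes fell, and 1 higher, where 22.2% rose. The log2 difference was -5.50 for Insm1 (SE 0.80), -5.36 for Neurog3 (SE 0.92), -4.79 for Pax4 (SE 0.99) and -3.96 for Neurod1 (SE 0.74). St18 was the gene that rose (log2 2.38, SE 0.61, adjusted p = 0.00515). Myt1 passed without a fold, and its call was lost without either Atoh1-deleted library and without Lgr5-GFP-Cre replicate 2 or 3 (adjusted p 0.0564 to 0.154).

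Enteroendocrine cells were compared with DBZ crypts, in which the cells are labelled as progenitors. Of the 6 genes 5 rose in enteroendocrine cells and 0 fell, where 21.1% of genes rose and 20.0% fell. St18 was higher by 3.76 (SE 0.67), Neurod1 by 3.17 (SE 0.55), Myt1 by 2.84 (SE 0.82), Pax4 by 2.43 (SE 0.76) and Insm1 by 1.80 (SE 0.55). Neurog3 was the one not called (log2 0.42, SE 0.70, adjusted p = 0.661). Without DBZ replicate 2 Neurog3 was called higher as well (log2 2.88, adjusted p = 0.00915), and without DBZ replicate 1 or enteroendocrine replicate 1 only 2 of 6 were called, Neurod1 and St18. Of the later factors 13 of 15 rose and 0 fell, and of the products 15 of 17 rose and 1, the neurotensin gene Nts, fell. Markers of other cell types moved too. All 8 tuft markers rose (849 and 4194 CPM in sum, against 120 and 113 CPM in DBZ crypts). All 6 Paneth markers rose (63339 and 53071 CPM, against 18592 and 4678 CPM). Of 8 enterocyte markers 7 fell and 0 rose (2102 and 2811 CPM, against 2752 and 12760 CPM). The part of these cell types was not tested. Atoh1 was lower in enteroendocrine cells, at 31.4 CPM, than in DBZ crypts, at 92.9 CPM (log2 -1.57, SE 0.32).

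All 6 genes rose in enteroendocrine cells over Paneth cells, where 15.4% of genes rose and 14.0% fell, and over goblet cells, where 36.8% rose and 26.1% fell. Over Paneth cells the log2 differences ran from 2.97 (SE 0.65, St18) to 4.88 (SE 0.95, Myt1). Over goblet cells they ran from 2.03 (SE 0.80, Myt1) to 3.95 (SE 0.82, Neurog3). Markers of other cell types moved as well. Over Paneth cells 4 of 8 tuft markers rose, and 5 of 8 enterocyte and 4 of 6 Paneth markers fell. Over goblet cells all 8 tuft and 5 of 6 Paneth markers rose. All 8 enterocyte markers fell there (2102 and 2811 CPM in sum, against 84737 and 72590.1 CPM in goblet libraries). The part of these cell types was not tested. The Myt1 call over goblet cells was lost without enteroendocrine replicate 1 (adjusted p = 0.232), without goblet replicate 1 (adjusted p = 0.117) and without goblet replicate 2 (adjusted p = 0.137). Goblet libraries were the third highest for Neurod1 and Myt1, and 3 genes rose in them over CD274+CD69+ control cells, Neurod1 by 2.58 (SE 0.55), Myt1 by 2.57 (SE 0.86) and St18 by 1.73 (SE 0.69), where 21.8% of genes rose and 29.5% fell. Neurod1 alone was called without CD274+CD69+ control replicate 1 or 2 or without goblet replicate 1, and St18 was lost without goblet replicate 2 (adjusted p = 0.0522). Neurog3 did not differ detectably there (3.64 ± 2.44 CPM in goblet cells and 4.26 ± 0.583 CPM in control cells, log2 -0.23, SE 0.77). The endocrine products summed to 3437 and 3395 CPM in goblet libraries, against 503 and 428 CPM in CD274+CD69+ control cells. In the same comparison 7 of 8 tuft markers rose in goblet libraries (209 and 206 CPM in sum, against 12.0 and 11.6 CPM in control cells), 5 of 8 enterocyte markers rose (84737 and 72590.1 CPM, against 12408 and 12481 CPM) and 5 of 8 stem markers fell (206 and 172 CPM, against 1506 and 1508 CPM); their part was not tested.

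CD274+CD69+ control cells were compared with Lgr5-GFP-Cre stem cells. Against those, 0 of 6 were called in CD274+CD69+ control cells by edgeR, where 24.0% of genes rose and 21.3% fell. At an unadjusted p below 0.05, 1 gene differed, Neurog3, which was lower (4.26 ± 0.583 CPM in control CD274+CD69+ cells and 13.8 ± 3.94 CPM in Lgr5-GFP-Cre cells, log2 -1.69, SE 0.71, adjusted p = 0.0592) and which DESeq2 called (adjusted p = 0.0233). Neurod1 and Pax4 were far from called by edgeR (adjusted p = 0.211 and 0.267). Neurod1 had 6.42 and 5.27 CPM in control CD274+CD69+ cells, against 2.38 to 3.84 CPM in Lgr5-GFP-Cre cells. Pax4 had 1.49 and 1.01 CPM, against 1.74 to 4.06 CPM. The groups did not overlap for Neurog3, Neurod1 or Pax4. The shares of all genes that separate this way, or reach an unadjusted p below 0.05, were not counted, so nothing is concluded from either. All 6 genes rose in enteroendocrine cells over CD274+CD69+ control cells, where 23.8% of genes rose and 22.7% fell. All 8 tuft and all 6 Paneth markers rose in enteroendocrine cells too, and 7 of 8 enterocyte markers fell. In Bmi1-GFP cells all 8 tuft markers rose over control cells (213 to 546 CPM in sum, against 12.0 and 11.6 CPM). The part of these cell types was not tested. Of the 6 genes 4 rose in Bmi1-GFP cells over control cells, Neurod1, Insm1, Myt1 and St18, where 9.72% of genes rose and 9.24% fell. Of these, Insm1 and Myt1 were lost without CD274+CD69+ control replicate 1 (adjusted p 0.068 and 0.122) or replicate 2 (adjusted p 0.052 and 0.0749), and Pax4 was called higher without Bmi1-GFP replicate 3 (adjusted p = 0.0397).

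Toxin treatment of the mice left the 6 genes without a detectable difference in CD274+CD69+ cells. By edgeR and by DESeq2 0 of 6 were called in DT cells over controls. At the same adjusted threshold edgeR called only 0.0741% of all genes higher and 0.101% lower, so 0 of 6 is near the share over all genes. An unadjusted p below 0.05 was reached by 0 of the 6, and the share of all genes at that threshold was not counted. Neurog3 stood at 5.53 and 4.42 CPM in DT cells, against 4.67 and 3.85 CPM in controls (log2 0.22, SE 0.75), and Neurod1 at 7.45 and 4.03 CPM, against 6.42 and 5.27 CPM (log2 -0.02, SE 0.54). The SEs of the 6 genes ran from 0.54 to 0.85 on the log2 scale, so a 2-fold difference, or a larger one, could be missed.

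The Lgr5-GFP-DTR and Lgr5-GFP-Cre lines differed in 1 of the 6 genes, St18, which was higher in Lgr5-GFP-DTR cells (log2 3.58, SE 0.62, adjusted p = 8.43e-04), where 9.49% of genes rose and 11.1% fell. Neurog3 had 4.47 and 3.18 CPM in Lgr5-GFP-DTR cells, against 18.3, 11.1 and 11.9 CPM in Lgr5-GFP-Cre cells, without overlap, and missed the threshold (log2 -1.85, SE 0.74, adjusted p = 0.0841). Insm1 missed it likewise (log2 -1.53, SE 0.61, adjusted p = 0.082). Beside the tuft markers, 6 Paneth markers were higher in Lgr5-GFP-DTR libraries, at 226516 and 164672 CPM, against 40104 to 49351 CPM in Lgr5-GFP-Cre libraries, and their part was not tested.

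After irradiation all 6 genes were lower in the single Bmi1-GFP library than in any of the 3 unirradiated ones, and with 1 library the difference was given no test. Neurog3 had 7 counts, or 0.389 CPM (95% Poisson interval 0.156 to 0.802, counting error only), against 3.63 to 12.2 CPM in unirradiated Bmi1-GFP cells. Neurod1 had 27.4 CPM (24.99 to 29.9), against 86.6 to 166 CPM, and so kept 20.9% of the unirradiated mean. Insm1 kept 15.7%, Pax4 12.8%, St18 12.0%, Myt1 6.67% and Neurog3 5.73% of theirs. Of 12991 genes with 1 CPM or more on either side, 27.7% lay below all 3 unirradiated libraries with a difference of over 2-fold. All 6 genes met this stricter rule. The 17 endocrine products summed to 2661 CPM in the irradiated library, against 9776 to 17979 CPM in unirradiated ones. Enterocyte markers summed to 83420 CPM in the irradiated library, against 5183 to 13978 CPM, and stem markers to 178 CPM, against 1095 to 1736 CPM; their part was not tested. Relative to Chgb, Neurod1 was at 4.40 counts per 100 in the irradiated library, inside the 4.06 to 8.39 of unirradiated ones, while Neurog3 was at 0.0669, below their 0.160 to 0.354.

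Over the means of the 12 groups (log2 CPM), which share libraries' makeup and depth, Neurod1 went most closely with Insm1 among the other 5 (Pearson r = 0.93) and Neurog3 with Pax4 (r = 0.84), while Neurog3 and Neurod1 gave r = 0.48. St18 was the least like the rest, at r = 0.28 to 0.50. Of 11903 genes with 5 CPM or more in a group, the 5 most like Neurod1 were Chgb, Amigo2, Scn3a, Syt13 and Lmx1a (r = 0.97 to 0.98). Lmx1a encodes a LIM-homeodomain factor and Scn3a a sodium channel subunit of excitable cells. The 5 most like Insm1 were Vwa5b2, Rfx6, Syt13, Tac1 and Gfra3 (r = 0.95 to 0.98), and those most like Pax4 were Gfra3, Fev, Nkx2-2, Tac1 and Isl1 (r = 0.91 to 0.94), of which Fev, Nkx2-2 and Isl1 are endocrine transcription factors. Myt1 was closest to Sphkap, Pax6, Dnah9, Mum1l1 and Gng4 (r = 0.96 to 0.98). For Neurog3 the 5 were Tubb3, Snhg12, Tchp, Ooep and Ddx55 (r = 0.82 to 0.87), none of them on the endocrine lists, and for St18 they were Rsph9, Hmgn3, Fhad1, Dlgap3 and Neurl1a (r = 0.93 to 0.94). These are ranks over 12 points, and with Spearman's rho every list changed. Of the 5 genes named, 0 stayed among the 5 most alike for Neurod1 and for Pax4. For Insm1 and for St18 1 stayed, for Neurog3 2 and for Myt1 3. Without the irradiated library 3 of 5 stayed for Neurog3, Myt1 and St18, and all 5 for Neurod1, Insm1 and Pax4.

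Of the paralogs of the 6 genes, Myt1l, Neurod4, Neurod6, Neurog1 and Neurog2 were too low to be tested, and Pax6, Bhlha15 and Neurod2 were found in several groups. Neurod2 averaged 10.2 CPM in enteroendocrine cells and 0.551 CPM in Lgr5-GFP-Cre cells (log2 4.18, SE 0.87, adjusted p = 0.00108). It averaged 1.60 CPM in Bmi1-GFP cells, lower than in enteroendocrine cells (log2 -2.67, SE 0.81). Bhlha15, a bHLH gene of secretory cells, fell in Bmi1-GFP cells, at 6.04 CPM, against 24.4 CPM in Lgr5-GFP-Cre cells (log2 -2.01, SE 0.40).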

How the data were processed

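Reads were 75 bp and single-end, per the labels. The authors deposited raw counts per gene. The submitters' processing notes name mm10, Bowtie2, TopHat2 2.0.6 and DESeq2. No source used here gives the counting program or strand setting. The 25 columns were matched to samples by name; the other 24 of 49 samples were not analysed here.

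Counts were analysed in R 4.3.3. The main test was edgeR 4.0.16's quasi-likelihood fit over 24 libraries of 11 groups, with group only, TMM scaling, filterByExpr (minimum count 10, minimum total 15) and Benjamini-Hochberg adjustment over 14837 genes within each of 18 comparisons. It was tested on simulated data with the same spread for all genes and no outlying library. That simulation does not cover pairs as uneven as the DBZ crypts. SE is the log2 fold change over the square root of F. Folds are left out where either group holds 3 counts or fewer. When 1 library is left out of a pair, the lone one is assumed to vary like the rest. P-values measure the spread between libraries labelled as biological replicates, with nothing said of shared mice, litters or days. DESeq2 1.42.0 was an alternative. Genes most alike had the highest Pearson r of mean log2 CPM (prior count 2) over 12 groups; up to 3 called genes of lowest adjusted p per list could be named, and a listed gene outside that rule was chosen after its values were seen. The 6 genes, the lists and the comparisons were chosen with earlier results of these data known. Ratios of counts had 0.5 added to both. Overlapping genes cannot be separated without strand.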

Additional observations from a re-analysis of the deposited data

How the results depend on the processing

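No log2 difference of the 6 genes changed sign as a called value in any of the 18 comparisons under any alternative run, and DESeq2 size factors changed no count of called genes by over 1.5 times. Fitted on the 2 groups compared alone, called genes numbered 2 in DBZ crypts over Atoh1-deleted crypts, 2 in DBZ crypts over Lgr5-GFP-Cre cells, 2 in enteroendocrine cells over DBZ crypts, 0 in libraries labelled Rbpj over DBZ crypts and 5 in goblet over CD274+CD69+ control cells; this uses fewer samples. The DESeq2 Wald test called 3 genes in Lgr5-GFP-DTR over Lgr5-GFP-Cre cells (Neurog3 and Insm1 lower). In CD274+CD69+ control over Lgr5-GFP-Cre cells it called 1, Neurog3, as did no filter, the 2-group fit and the replicate block (1 each). Without the TruSeq libraries 2 genes were called in Bmi1-GFP and 1 in goblet over CD274+CD69+ control cells. Leaving out 1 library at a time, counts ran from 0 to 3 in Bmi1-GFP over enteroendocrine cells, 3 to 5 in DBZ over Atoh1-deleted crypts, 0 to 4 in those labelled Rbpj over DBZ crypts, 0 to 5 in DBZ crypts over Lgr5-GFP-Cre cells, 2 to 6 in enteroendocrine cells over DBZ crypts, 2 to 5 in Bmi1-GFP and 1 to 2 in goblet over CD274+CD69+ control cells; the cause was not tested. The ratio difference of Neurog3 to Neurod1 stayed between -6.90 and -6.08. Replicate numbers did not pair the Bmi1-GFP and Lgr5-GFP-Cre libraries, the one comparison with 3 pairs (correlations of deviations of -0.0714, 0.00719 and 0.0515). In the others, with 2 pairs, these correlations ran from -0.207 to 0.324, the highest in enteroendocrine and Paneth cells, and the numbers were not taken as pairing. With the replicate block the calls of Neurog3 in enteroendocrine over Lgr5-GFP-Cre cells (adjusted p = 0.0549), St18 in Bmi1-GFP over enteroendocrine cells (0.0939) and Insm1 in DBZ crypts over Lgr5-GFP-Cre cells (0.0552) were lost. Depth limits Myt1, Insm1 and Pax4 in Atoh1-deleted crypts, where libraries held 0 to 6 counts of each.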
